A study of Homo sapiens with 12 samples.

Results

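The transcripts of 6 dual-specificity phosphatases, DUSP1, DUSP2, DUSP8, DUSP10, DUSP14 and DUSP16, were followed across 4 groups of leukemia cells. All 6 had a row among the 19447 gene symbols of the count table. They were taken by name, and the set was chosen by the rise of DUSP8 in lycorine-treated K562 cells over untreated K562 cells. Values of that contrast, and of the difference between lines that contains it, are therefore given for the 6 genes as a description with no p. So are the values of DUSP8 in every comparison with K562, since those K562 libraries took part in its selection. K562 is a human chronic myeloid leukemia line that carries the BCR-ABL fusion, and K562/IM is its derivative made resistant to imatinib, an ABL kinase inhibitor, by stepwise exposure to the drug. All groups share the K562 background, and both groups without lycorine served as controls. The paper describes K562/IM as growing in medium that contained imatinib once resistance was built up. Whether imatinib was present before RNA was taken is not stated. K562+L and the libraries labelled K562/IM+L received lycorine, a plant alkaloid, at 6 µM. How long the cells were exposed before RNA was taken is not stated in the sources used here. Each group had 3 libraries. Nothing states whether those came from separate cultures, so the p-values measure only the spread between these samples, and the resistant line is a single derived population.

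MAP kinases pass stress and growth signals to the nucleus through a cascade in which each kinase phosphorylates the next. JNK and p38 are the kinases that answer to stress, and they are switched off when a phosphatase removes the phosphates from the threonine and tyrosine of their activation loop. Dual-specificity phosphatases remove both. Several of their genes are themselves induced by the cascade they shut off, which makes them part of a negative feedback loop. DUSP1 and DUSP2 encode inducible nuclear enzymes, DUSP2 being best known from activated lymphocytes. DUSP8, DUSP10 and DUSP16 encode enzymes that prefer JNK and p38. DUSP14 encodes a small atypical enzyme that lacks the docking domain of the others.

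The promoters of DUSP8, DUSP1 and DUSP16 are shown because these genes had the largest differences between K562+L and K562. Each run covers 250 bases before to 50 bases after the RefSeq start site on GRCh38.p14, read 5′ to 3′ along the minus strand, on which all 3 genes lie. The windows are chr11:1572222-1572521 for DUSP8, chr5:172771146-172771445 for DUSP1 and chr12:12562814-12563113 for DUSP16. Capitals mark the cAMP response element (CRE, TGACGTCA), its shorter core TGACG on either strand, and the TATA box TATAAA. The core lies inside every CRE.
DUSP8: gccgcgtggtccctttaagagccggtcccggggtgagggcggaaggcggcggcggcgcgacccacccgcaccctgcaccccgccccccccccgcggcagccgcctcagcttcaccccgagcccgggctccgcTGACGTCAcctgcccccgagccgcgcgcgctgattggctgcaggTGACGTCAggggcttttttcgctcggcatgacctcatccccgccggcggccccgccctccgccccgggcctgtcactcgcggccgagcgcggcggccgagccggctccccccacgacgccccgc
DUSP1: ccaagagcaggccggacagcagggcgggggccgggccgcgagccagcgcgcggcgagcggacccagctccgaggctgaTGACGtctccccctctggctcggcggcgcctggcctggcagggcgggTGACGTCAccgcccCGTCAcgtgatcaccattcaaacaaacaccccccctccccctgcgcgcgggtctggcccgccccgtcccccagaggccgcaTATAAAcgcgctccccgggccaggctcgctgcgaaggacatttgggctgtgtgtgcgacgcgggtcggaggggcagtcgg
DUSP16: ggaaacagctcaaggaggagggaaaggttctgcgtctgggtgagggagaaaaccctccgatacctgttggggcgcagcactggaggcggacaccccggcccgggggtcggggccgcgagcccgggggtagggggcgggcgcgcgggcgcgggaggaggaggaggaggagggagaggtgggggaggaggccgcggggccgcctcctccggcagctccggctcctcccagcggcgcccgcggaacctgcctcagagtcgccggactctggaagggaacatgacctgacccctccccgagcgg

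The DUSP8 window holds 2 CREs, which begin at -118 and -74 from the start site. The DUSP1 window holds 1 CRE at -125, further cores at -172 and -111, and a TATA box at -30. DUSP16 has none of the capitalised motifs in its window. A search of both strands of 35116 RefSeq promoters of the same length found a CRE in 1.85% and at least 2 in 0.0598%, or 21 promoters. RefSeq gave a promoter for 18 of the 24 DUSP symbols with a row in the count matrix, and 2 of those 18, DUSP8 and DUSP1, held a CRE. The other 3 members held none, DUSP10 having a single core at -4. The core alone was found in 24.6% of all promoters and the TATA box in 11.5%. The AP-1 element TGANTCA (7.71% of all promoters), the C/EBP-ATF element TGATGNAA (3.62%), the CArG box (1.29%) and the NF-kB site (5.91%) were searched as well and had no match in the windows of the 6 genes, and the GC box GGGCGG, which all 6 windows hold, was found in 45% of all promoters. These are matches of letters, and binding was not measured. The motifs were chosen with earlier results of these data known, and the set was chosen by DUSP8. Nothing is therefore read from how rare a motif is. The GENCODE 29 models of DUSP8 and DUSP16 begin downstream of these RefSeq windows, so for them the position of the start depends on the annotation, whereas the DUSP1 window includes the GENCODE start.

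Libraries were made from poly(A)-selected RNA, and the deposited values were whole-number counts per gene and library, with no normalization by the authors. Total counts ran from 75093844 to 107344598. Levels are given as CPM, the standard count scaled to library size, with library sizes adjusted by edgeR's TMM factors over the 12 libraries. In the sample titles K562/IM+L carries the name G2, whereas G6 is used for it in the study's figures, so these are named the libraries labelled K562/IM+L throughout. They stood apart from the rest. ABCB1, the drug efflux pump that the resistant line carried at 23.6 CPM, lay at 0.752 CPM in them and at 1.76 CPM in K562, and their median Spearman correlation over 13957 genes was 0.909 with K562/IM, 0.940 with K562 and 0.922 with K562+L, whereas libraries within a group reached 0.988 to 0.996. Every direction drawn from these libraries rests on their label. The erythroid regulator GATA1 stood between 196 and 249.8 CPM on average in the 4 groups, while the fetal globin HBG2 varied from 979 CPM in K562/IM to 16990 CPM in the labelled libraries. Of 10 markers of other cells, the B-cell gene MS4A1 was at 0 in every library and CD3E, CD14 and NCAM1 did not pass 0.51 CPM. CD3D, a T-cell receptor component, averaged 2.15, 0.461, 22.0 and 0.343 CPM in K562, K562+L, K562/IM and the labelled libraries. The part of these differences in the phosphatase values was not tested. In bulk RNA, fewer cells of a kind and less RNA per cell cannot be told apart.

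DUSP8 lies on chromosome 11 of GRCh38 from 1554044 to 1571920, on the minus strand. It was nearly silent in untreated K562, where the libraries held 0.908, 0.525 and 0.553 CPM, from 74, 44 and 43 counts. In K562+L it stood at 28.0, 28.2 and 25.2 CPM, from 2423, 2439 and 2624 counts. K562/IM held 4.30, 4.05 and 4.64 CPM without lycorine, and the labelled libraries 4.52, 4.05 and 3.99 CPM. The gene thus had 3 levels, low in K562, intermediate in K562/IM and the labelled libraries and high in K562+L. Only the intermediate groups overlapped. Its summed count in K562 was 161, with an exact 95% Poisson interval of 137 to 188. Low counts in the table pile up near multiples of 4, and 67.9% of the 23289 values from 1 to 25 were a multiple of 4 or 1 above one. If 4 counts stand for 1 fragment, the 161 counts become 40, with an interval of 28.6 to 54.5. Both intervals cover counting error only.

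DUSP1 lies on chromosome 5 from 172768090 to 172771195. It was read at 32.6, 30.3 and 29.9 CPM in K562 and at 101.3, 96.5 and 107.5 CPM in K562+L. The K562/IM libraries held 38.4, 46.6 and 34.6 CPM, and the labelled libraries 141.1, 108.9 and 95.6 CPM. DUSP1 was high in both groups labelled as treated and lower in both controls, and the labelled libraries had the widest spread (SD 23.4 CPM, n = 3).

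DUSP16 lies on chromosome 12 from 12474210 to 12562383. K562 held 24.6, 19.4 and 17.3 CPM and K562+L 65.7, 60.7 and 70.1 CPM. It stood at 25.5, 24.4 and 22.9 CPM in K562/IM and at 17.04, 15.6 and 18.6 CPM in the labelled libraries. The K562+L libraries were above all others, and the labelled libraries were below all 3 K562/IM libraries.

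DUSP10, on chromosome 1 from 221701424 to 221742176, moved over a narrower range. K562 held 9.46, 7.94 and 7.91 CPM, K562+L 14.2, 13.95 and 14.5 CPM, K562/IM 6.06, 5.46 and 5.92 CPM and the labelled libraries 9.80, 8.51 and 8.51 CPM. K562/IM was the lowest group and K562+L the highest, and K562 and the labelled libraries overlapped. DUSP14, on the plus strand of chromosome 17 from 37489831 to 37513501, stood at 24.9, 26.2 and 27.2 CPM in K562 and at 39.2, 41.0 and 31.9 CPM in K562+L. It was at 21.6, 22.7 and 21.5 CPM in K562/IM and at 23.4, 21.5 and 17.3 CPM in the labelled libraries. K562/IM and the labelled libraries both lay below K562 in every library.

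DUSP2, on chromosome 2 from 96143166 to 96145440, was at or near 0. It had no count in K562. It had 4, 0 and 0 counts in K562+L, 12, 8 and 0 in K562/IM and 7, 0 and 0 in the labelled libraries. A count of 0 allows up to 3 counts, or 0.0280 to 0.0419 CPM at these depths, so presence below that was not detectable. The gene failed the filter on low counts in all 4 pairwise comparisons and no fold change is given. The other 5 members passed it in all of them.

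**Figure D1:**
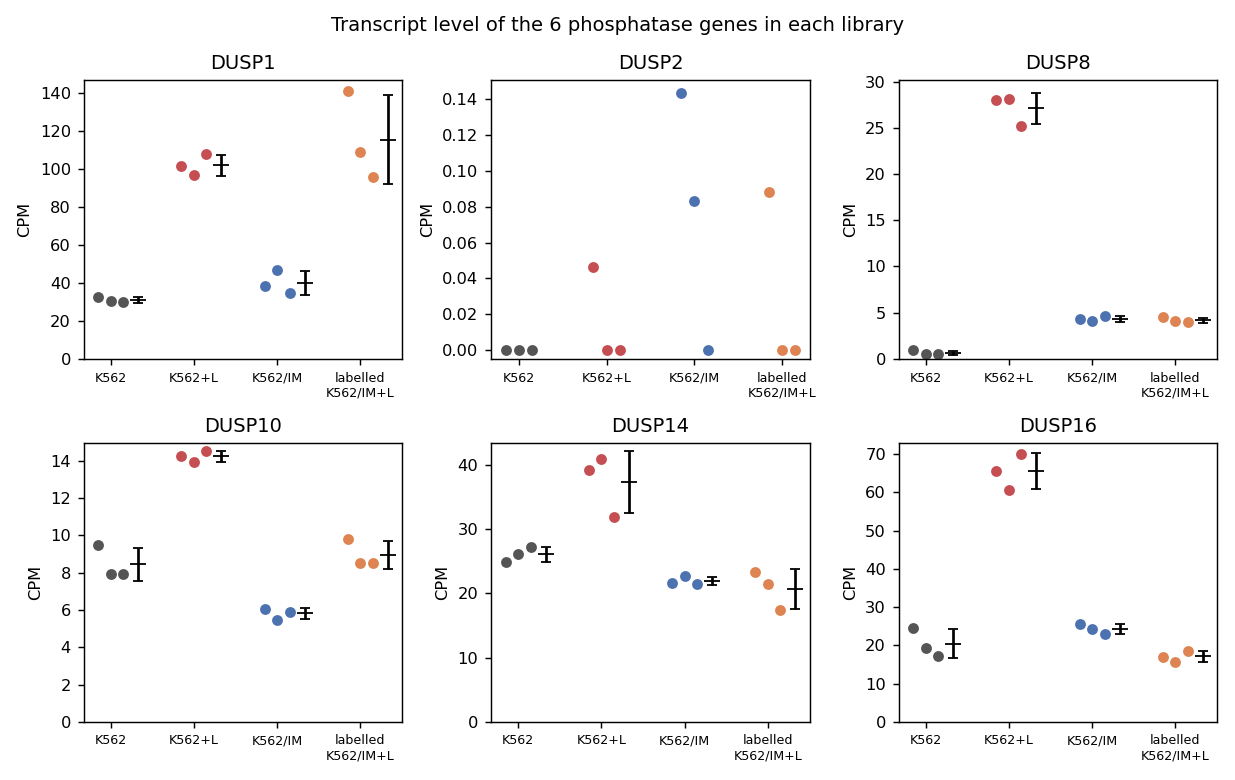
Each panel plots the CPM of 1 gene on a linear axis, with 1 point per library, 3 libraries per group, and the mean ± SD beside them (no mean is drawn for DUSP2, which had 0 counts in most libraries). DUSP8 sat between 25.2 and 28.2 CPM in K562+L and below 5 CPM in every other library, whereas DUSP1 was high in both groups labelled as lycorine-treated.

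Lycorine-treated K562 cells held more transcript of all 5 readable phosphatases than untreated K562 cells, and in each of the 5 the libraries of the groups did not overlap. The share of all genes without such overlap was not counted, and nothing is read from this one. Of the 12927 genes tested by edgeR 37.3% had an adjusted p below 0.05 in this contrast. DUSP8 was 40.8-fold higher, from 0.662 ± 0.214 to 27.1 ± 1.67 CPM (SD, n = 3), a log2 fold change of 5.35 ± 0.21 (SE). DUSP1 was 3.29-fold higher (log2 1.72 ± 0.088) and DUSP16 3.20-fold higher (log2 1.68 ± 0.14). DUSP10 was 1.68-fold higher (log2 0.75 ± 0.11) and DUSP14 1.43-fold higher (log2 0.52 ± 0.11). A gene was called when edgeR's quasi-likelihood test gave an adjusted p below 0.05 and the log2 fold change lay beyond 1 in either direction. DUSP8, DUSP1 and DUSP16 passed both thresholds, where 2.38% of the 12927 genes tested rose and 4.01% fell. Because DUSP8 was selected on this contrast, nothing is read from that count. By fold change DUSP8 ranked 8 of 12927, and among the 18 DUSP genes tested it came before DUSP1.

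In cells of the resistant line without lycorine DUSP8 was 6.52-fold higher than in K562, at 4.33 ± 0.296 CPM (log2 2.71 ± 0.25), and all 3 K562/IM libraries lay above all 3 K562 libraries. Any imatinib in the K562/IM medium cannot be told apart from the line in this comparison. It was the 1 member of 5 tested that passed both thresholds, where 13.9% of the 13406 genes tested rose and 5.29% fell. Nothing is read from that count, because the K562 libraries are those of the contrast that chose DUSP8. The remaining differences were small. DUSP1 was higher by a log2 of 0.37 ± 0.12 (adjusted p = 0.029), DUSP10 was lower at -0.54 ± 0.12 (adjusted p = 0.0067) and DUSP14 was lower at -0.25 ± 0.078 (adjusted p = 0.026), each without overlap of the libraries and none past the fold threshold. The DUSP1 and DUSP14 differences lost their adjusted p in some alternative settings, with ranges of 0.017 to 0.089 and 0.0057 to 0.10. DUSP16 differed by 0.25 ± 0.13 with overlapping libraries (adjusted p = 0.15). Of the 13406 genes tested by edgeR 57.1% had an adjusted p below 0.05 here. The share of all genes without overlap was not counted, and nothing is read from how many members passed either mark.

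When the labelled libraries were set against K562/IM, DUSP1 was the member that passed both thresholds. It rose 2.94-fold, from 39.9 ± 6.11 to 115.2 ± 23.4 CPM (log2 1.56 ± 0.17, adjusted p = 0.00013), without overlap. In this comparison 14.7% of the 13727 genes tested rose and 13.8% fell, so that 1 of 5 members called is near the background. DUSP8 showed no detectable difference, at a log2 of -0.023 ± 0.14 with a 95% interval of -0.34 to 0.29 (adjusted p = 0.89). DUSP14 likewise differed by -0.057 ± 0.12 (adjusted p = 0.68). DUSP10 was higher at 0.65 ± 0.12 (adjusted p = 0.0019) and DUSP16 lower at -0.48 ± 0.097 (adjusted p = 0.0034), both without overlap and below the fold threshold. In this comparison 66.8% of the 13727 genes had an adjusted p below 0.05 by edgeR. How many of all genes lacked overlap was not counted, and nothing is read from its absence in members.

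Against untreated K562, the labelled libraries held more DUSP8 and DUSP1. DUSP8 was 6.22-fold higher (log2 2.64 ± 0.27) and DUSP1 rose 3.68-fold (log2 1.88 ± 0.16, adjusted p = 7.5e-05). These were 2 of 5 members, where 14.9% of 13307 genes rose and 8.91% fell. The K562 libraries are shared with the contrast that chose DUSP8, and nothing is read from its part in the count. DUSP14 stood at -0.35 ± 0.13 (adjusted p = 0.057), DUSP16 at -0.28 ± 0.15 (adjusted p = 0.15) and DUSP10 at 0.064 ± 0.14 (adjusted p = 0.71).

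**Figure D2:**
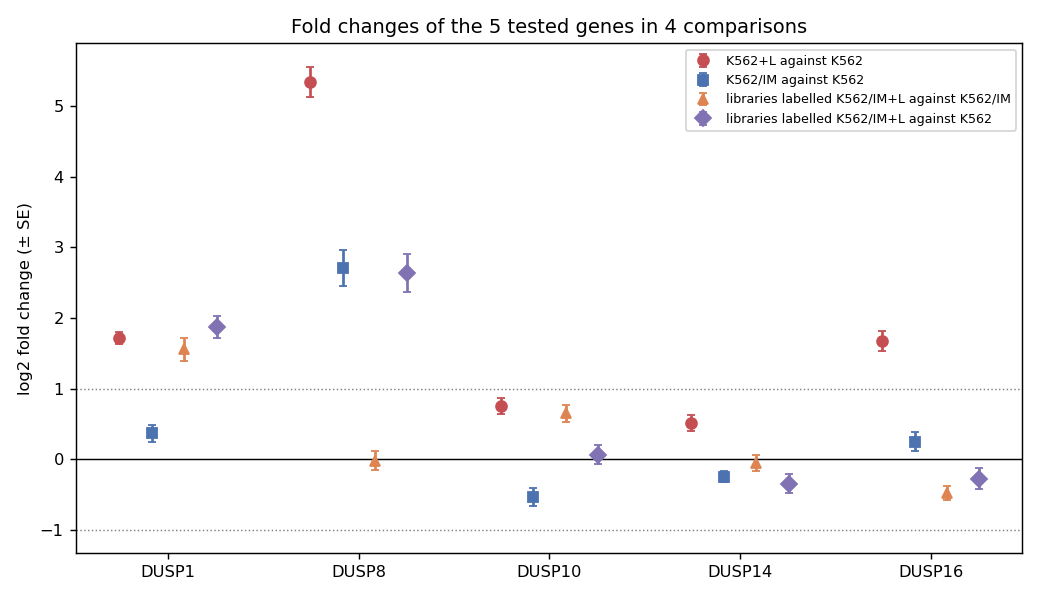
The vertical axis is the log2 fold change ± SE of each of the 5 tested genes, with a marker for each of 4 pairwise comparisons and dotted lines at the fold threshold of 1 in either direction. DUSP1 lies above the line in both lycorine comparisons as labelled. DUSP8 lies at 5.35 in K562+L against K562 and at -0.023 in the labelled libraries against K562/IM.

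The lycorine effect was then compared between the lines as labelled, by an interaction over all 12 libraries. The difference, resistant minus parental, was -5.40 ± 0.25 for DUSP8 and -2.18 ± 0.17 for DUSP16 on the log2 scale. It was -0.60 ± 0.17 for DUSP14, -0.18 ± 0.20 for DUSP1 and -0.13 ± 0.15 for DUSP10. DUSP8 and DUSP16 passed both thresholds in the lower direction, where 16.3% of 13995 genes did and 17.5% passed in the higher direction. The contrast that chose the genes is contained in this difference, and nothing is read from the count.

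To set the genes beside each other, CPM was divided by the kilobases of annotated exon. On this scale DUSP1 was the most abundant of the 6 in every group and DUSP14 the next, with no overlap between them. In K562 the order went on with DUSP16 (3.57 CPM per kb) and DUSP10 (2.90 CPM per kb), whose libraries overlapped, then DUSP8 (0.143 CPM per kb). In K562+L the level of DUSP8 stood at 5.87 CPM per kb, above DUSP10 at 4.88 CPM per kb and below DUSP16 at 11.4 CPM per kb. In K562/IM DUSP8 was again last of the 5, at 0.938 CPM per kb, and in the labelled libraries it was at 0.906 CPM per kb, with DUSP10 (3.07 CPM per kb) and DUSP16 (2.98 CPM per kb) overlapping.

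The summed level of the 6 genes was 32.4 ± 1.29 CPM per kb in K562, 87.5 ± 1.66 in K562+L, 35.7 ± 3.25 in K562/IM and 72.3 ± 12.95 in the labelled libraries (SD, n = 3). The make-up of the sum differed between the groups labelled as treated. DUSP1 supplied 57.6% of it in K562+L and 78.7% in the labelled libraries, against 47.3% in K562 and 55.1% in K562/IM. DUSP8 supplied 0.440% in K562, 6.71% in K562+L, 2.65% in K562/IM and 1.27% in the labelled libraries. DUSP16 supplied 13.1% in K562+L and 4.23% in the labelled libraries.

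**Figure D3:**
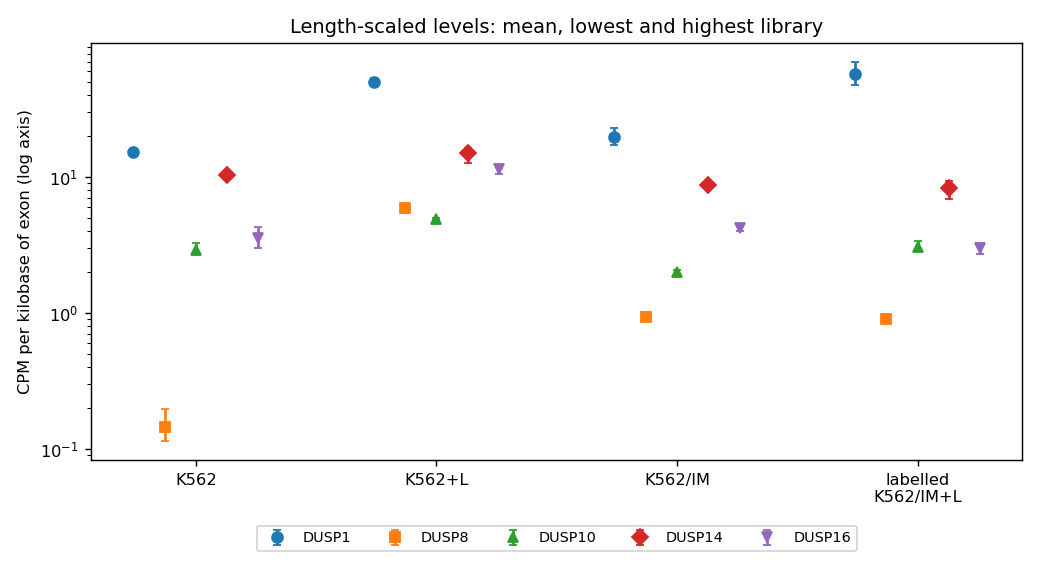
Points are the mean CPM per kilobase of exon on a log axis for 5 genes in each group, and bars run from the lowest to the highest of 3 libraries. DUSP8 moves from 0.143 in K562 to 5.87 in K562+L and passes DUSP10, and DUSP1 stays on top in every group.

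The rest of the JNK and p38 cascade was examined through 10 lists of 98 genes, of which 95 were in the table. Of 85 tested in K562+L against K562, 6 rose (7.06%, against 2.38% of all genes) and 2 fell (2.35%, against 4.01%). The median log2 fold change was 0.0897, where the median over all genes was -0.00012. The lists were chosen with earlier results of these data known. Nothing is therefore read from these shares, and the adjusted p-values of listed genes carry the same limit. The kinases themselves stayed under the thresholds. None of 7 JNK and p38 genes, 3 MAP2K genes, 18 MAP3K genes or 7 kinases activated by p38 was called by edgeR or by DESeq2. Over all 12927 genes tested by edgeR only 6.39% were called. None among so few kinases is near that share, and nothing is read from it. Of the 35 kinase genes 11 had an unadjusted p below 0.05, and 9 had an adjusted p below it with a log2 fold change under 1. MAPK8 (JNK1) stood at 45.2 ± 4.15 CPM in K562 and 40.8 ± 6.19 CPM in K562+L, and MAPK14 (p38 alpha) at 104.7 ± 6.44 and 112.5 ± 5.94 CPM (SD, n = 3). Over the 7 JNK and p38 genes the median log2 fold change was -0.428, and 3 had an adjusted p below 0.05 by edgeR. Of all 12927 genes tested 37.3% had one, and nothing is read from that count. From K562 to K562+L, MAPK9 went from 68.8 to 51.2 CPM on average, MAPK11 from 24.3 to 14.75 CPM and MAPK12 from 50.9 to 35.1 CPM. MAPK13 was also lower on average, at 1.14 and 0.791 CPM, with overlapping libraries. MAPK10 was higher, at 0.082 and 0.212 CPM, near the counting floor.

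The 6 genes that rose were scaffolds, transcription factors and 1 phosphatase. JUN, the AP-1 subunit that JNK phosphorylates, went from 29.5 ± 2.39 to 304.1 ± 19.2 CPM (log2 3.36 ± 0.10, adjusted p = 6.8e-06). The related factor FOSL2 rose by 1.92 ± 0.17 on the log2 scale (adjusted p = 0.00029) and the stress-induced factor ATF3 by 1.29 ± 0.097 (adjusted p = 0.00017). MAPK8IP1 and MAPK8IP2, scaffolds that hold JNK and its upstream kinases together, rose by 1.52 ± 0.19 (adjusted p = 0.0011) and 1.77 ± 0.27 (adjusted p = 0.0026). PTPRR, a tyrosine phosphatase that acts on MAP kinases, rose by 1.06 ± 0.14 (adjusted p = 0.0015). DDIT3, the CHOP factor of the integrated stress response, was higher by 0.92 (adjusted p = 0.0014), short of the fold threshold. The genes that fell, DUSP13 (-1.13 ± 0.18, adjusted p = 0.0033) and DUSP21 (-1.28 ± 0.40, adjusted p = 0.038), are other dual-specificity phosphatases. DUSP13 lost its call without K562 replicate 3 (log2 -0.99), and DUSP21 lost its call in 4 of 6 fits that each left out 1 library (without replicate 2 or replicate 3 of either group), with a range of -1.71 to -1.07. No ERK-selective phosphatase among 4 tested, and none of 6 proteins that bind AU-rich elements of short-lived transcripts, was called by edgeR or DESeq2. Of the former 1 and of the latter 3 had an unadjusted p below 0.05. With 6.39% of all genes called by edgeR, nothing is read from these counts.

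JUN, ATF3 and DDIT3 were also read in K562/IM and the labelled libraries. JUN averaged 111.4 ± 14.4 CPM in K562/IM and 166.7 ± 27.2 CPM in the labelled libraries, so that, as for DUSP8, K562 was lowest and K562+L highest. From K562 to K562/IM JUN rose by 1.92 ± 0.12 on the log2 scale (adjusted p = 1.1e-05). ATF3 averaged 21.7 ± 0.561 CPM in K562/IM and 28.3 ± 2.54 CPM in the labelled libraries, against 24.3 ± 0.402 in K562 and 59.5 ± 5.67 in K562+L. DDIT3 averaged 29.1 ± 2.66 CPM in K562 and 54.8 ± 6.52, 53.8 ± 2.67 and 58.1 ± 10.7 CPM in K562+L, K562/IM and the labelled libraries (SD, n = 3).

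**Figure D4:**
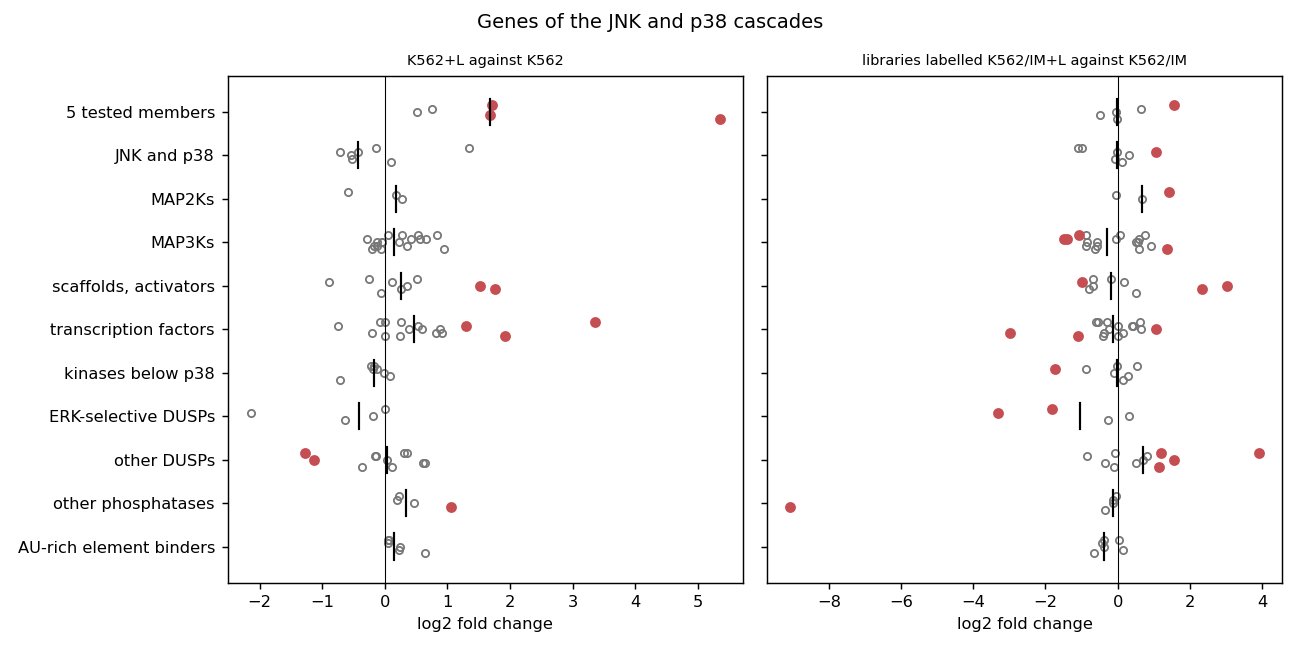
Each circle is the log2 fold change of 1 gene, by list, in K562+L against K562 (left) and in the labelled libraries against K562/IM (right), with filled circles past both thresholds and a bar at each list's median. The top row holds the 5 tested phosphatases described above, and the kinase lists stay unfilled on the left.

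The cascade lists were counted in the other comparisons too, and each share called is set beside that of all genes. Between K562/IM and K562, 13 of 86 genes rose (15.1%, against 13.9% of all genes) and 4 fell (4.65%, against 5.29%). MAPK13 (p38 delta) rose from 1.14 to 3.76 CPM on average (log2 1.72 ± 0.31, adjusted p = 0.0022). MAP3K15 rose from 0.193 to 5.05 CPM (log2 4.70 ± 0.24, adjusted p = 4.7e-06). The size of that fold is uncertain, because its K562 libraries held 0.154 to 0.215 CPM, near the counting floor. RPS6KA5, a kinase activated by p38 that phosphorylates histones, rose by 1.02 ± 0.16 (adjusted p = 0.0010). The RPS6KA5 call was lost without K562 replicate 3 (log2 0.86) or K562/IM replicate 1. MAPK8IP2 fell by 1.71 on the log2 scale (adjusted p = 0.0061). Between the labelled libraries and K562/IM, 10 rose and 10 fell of 86 (11.6% each, against 14.7% and 13.8% of all genes). MAP2K3, which activates p38, rose from 12.2 to 32.0 CPM (log2 1.42 ± 0.10, adjusted p = 2e-05), MAPK11 (p38 beta) rose by 1.07 ± 0.13 (adjusted p = 0.00021; log2 0.94 and not called without labelled replicate 1), and the scaffold MAPK8IP1 rose from 4.62 to 36.8 CPM (log2 3.02 ± 0.13, adjusted p = 1.7e-06). MAP3K2 was uneven, at 9.17, 7.37 and 29.7 CPM in the labelled libraries and 45.1, 45.3 and 42.0 CPM in K562/IM (log2 -1.48 ± 0.49, adjusted p = 0.029). Without labelled replicate 3 its log2 fold change was -2.39 (adjusted p = 2.6e-06), and leaving out any of the other 5 libraries ended the call. RPS6KA5 fell by 1.75 (adjusted p = 1e-05) and the AP-1 subunit FOSL1 by 2.98 (adjusted p = 3.8e-07) on the log2 scale. Against K562, 12 of 84 genes rose in the labelled libraries (14.3%, against 14.9% of all genes) and 5 fell (5.95%, against 8.91%), and the kinase MAPKAPK3 fell by 1.23 on the log2 scale (adjusted p = 0.00012). In the difference of the lycorine effects 6 of 86 passed in the higher direction (6.98%, against 17.5% of all genes) and 16 in the lower (18.6%, against 16.3%).

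Genes whose profile over the 12 libraries lay closest to each phosphatase were named by the Pearson correlation of log2 CPM among 13956 genes. The points share 4 group means and their libraries, and the values are descriptive. Nearest to DUSP8 were KDM6B, a histone demethylase (r = 0.959), the insulin signalling adaptor IRS2 (r = 0.959), JUN (r = 0.955) and the calcium sensor STIM1 (r = 0.943). These 4 were lowest in K562 and highest in K562+L. IRS2, for example, averaged 11.2, 33.1, 15.7 and 19.8 CPM in K562, K562+L, K562/IM and the labelled libraries.

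**Figure D5:**
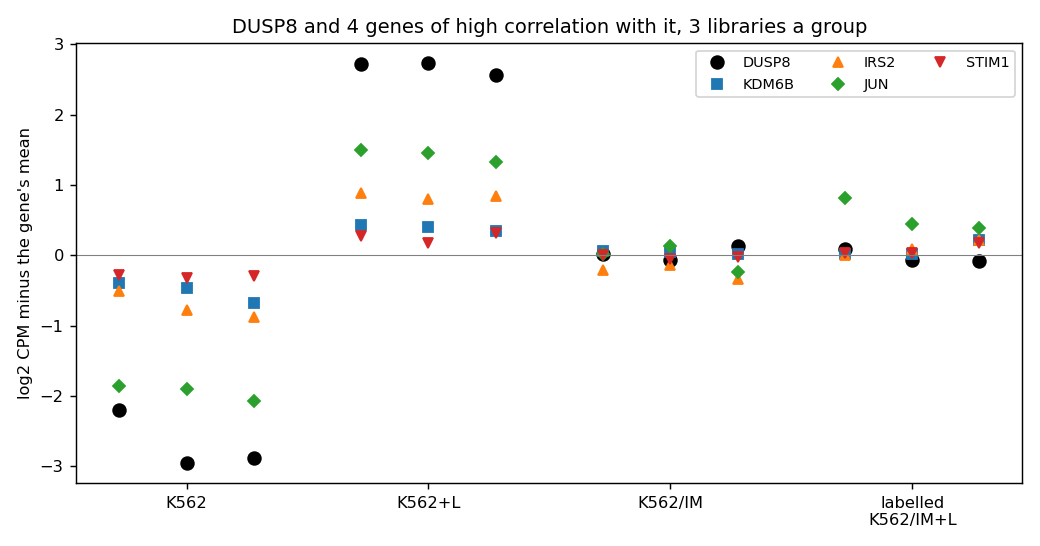
The vertical axis is log2 CPM minus each gene's own mean over the 12 libraries, with 1 marker per gene and library. DUSP8 and the 4 genes share a low K562 group and a high K562+L group, and DUSP8 covers the widest range of the 5 plotted.

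The other members had other neighbours. DUSP1 lay nearest to CREG1 (r = 0.967), CHST11 (r = 0.962) and RSAD2 (r = 0.956). RSAD2, an interferon-induced antiviral gene, averaged 1.89, 6.60, 2.71 and 7.76 CPM in K562, K562+L, K562/IM and the labelled libraries. DUSP16 lay nearest to PPM1D (r = 0.986), ZFR (r = 0.984) and CASC3 (r = 0.983). PPM1D encodes a serine/threonine phosphatase that also acts on p38, and it averaged 32.98, 45.4, 35.1 and 31.6 CPM. DUSP10 lay nearest to NSUN6 (r = 0.975), GMPS (r = 0.973) and PHF10 (r = 0.969), and DUSP14 to MED27 (r = 0.978), NFKBIB (r = 0.969) and DTWD1 (r = 0.966). Between members the correlations ran from 0.218 for DUSP1 with DUSP14 to 0.817 for DUSP14 with DUSP16, and DUSP8 stood at 0.791 with DUSP16 and 0.721 with DUSP1.

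Some reads could not be assigned with certainty. DUSP1, DUSP8 and DUSP16 each overlap a gene on the opposite strand in GENCODE 29, and the counting is not stated to use strand. None of those opposite-strand genes has a row in the count table. DUSP8 also has 3 annotated pseudogenes on chromosome 10 without rows in the table, and reads shared with them cannot be told apart from its own.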

How the data were processed

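Poly(A)-selected RNA of 12 libraries, 3 per group, was analysed, grouped by the cell line and treatment in the labels. The authors deposited raw counts per gene symbol without normalization. The submitters' processing notes name hg38, FastQC, STAR, StringTie and DESeq2 with no versions or roles, and the annotation and counting settings are not given in the sources used here. Total counts were 75093844 to 107344598. The members and lists were chosen with earlier results of these data known, and so were the promoter motifs.

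Counts were filtered with filterByExpr (minimum count 10), scaled by TMM and fitted with edgeR 4.0.16 in R 4.3.3 by the quasi-likelihood test for each pair of groups, with Benjamini-Hochberg adjustment over all genes tested. The difference of the lycorine effects was an interaction over 12 libraries. CPM used TMM factors over 12 libraries and, for profiles, a prior count of 2. Exon lengths came from GENCODE 29 (19029 of 19447 symbols matched) and promoters from RefSeq GRCh38.p14. Genes named were the 6 members, JUN, ATF3 and DDIT3, each listed gene called in K562+L against K562, the called gene of each list with the largest change in every other comparison, and the 5 genes nearest to DUSP8 and 3 nearest to each other member by correlation. One gene within this rule is not reported here. GATA1, HBG2, CD3D and other markers, ABCB1, MAPK8, MAPK9, MAPK10, MAPK12 and MAPK14 were named beside these after their values were seen.

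Alternatives were DESeq2 1.42.0, median-ratio size factors, no filter, no fold threshold, a replicate block, counts divided by 4, one fit over 12 libraries, and each library left out. Leaving out libraries for the cascade genes named was added after the data were seen. The fits were tested on simulated data. With 3 libraries on each side the smallest exact p is 0.1, so exact tests were not used. Protein, cell and animal measurements were not analysed here.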

Additional observations from a re-analysis of the deposited data

Results flagged for a closer look

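The lycorine effect was compared between lines as labelled (edgeR, interaction over 12 libraries). Each cascade gene in this paragraph, among those that the naming rule takes, had an adjusted p below 0.05. Over all 13995 genes tested 8628, or 61.7%, did so, and with the fold threshold as well 6 of 86 cascade genes passed in the higher direction and 16 in the lower. Values are the log2 effect in the resistant line minus that in K562, ± SE, and all rest on the label of the libraries labelled K562/IM+L. DUSP8 differed by -5.40 ± 0.25, DUSP16 by -2.18 ± 0.17 and, below the fold threshold, DUSP14 by -0.60 ± 0.17. The contrast that chose these phosphatases is part of the difference, so their values are a description with no p. Among the transcription factors JUN differed by -2.78 ± 0.18, FOSL1 by -2.80 ± 0.13, FOSL2 by -3.04 ± 0.26, ATF3 by -0.91 ± 0.12 and DDIT3 by -0.80 ± 0.19. Among the kinases MAPK11 differed by 1.77 ± 0.16, MAP2K3 by 1.99 ± 0.19, MAP3K2 by -2.17 ± 0.57, RPS6KA5 by -1.58 ± 0.21 and MAPKAPK3 by -0.77 ± 0.12. The scaffold MAPK8IP1 differed by 1.48 ± 0.24 and the RNA-binding protein ZFP36L1 by -1.32 ± 0.14. Among other phosphatases DUSP5 differed by -1.85 ± 0.37, PTPRR by -1.45 ± 0.26, DUSP13 by 2.67 ± 0.21 and DUSP21 by 5.18 ± 0.42.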

How the results depend on the processing

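The number of phosphatases called did not change with the test, the size factors, the filter, counts divided by 4, one fit over 12 libraries, the block or any library left out, and 66 of 70 recomputed counts were unchanged. The exceptions came with no fold threshold, which called 5 in place of 3 in K562+L against K562, 4 in place of 1 in K562/IM against K562, 3 in place of 1 in the labelled libraries against K562/IM and 3 in place of 2 in the difference of the lycorine effects. Over all genes that setting called 4821 in place of 826, 7661 in place of 2566, 9169 in place of 3917, 7446 in place of 3162 for the labelled libraries against K562, and 8628 in place of 4720 for the difference. No called phosphatase reversed. The DUSP8 log2 fold change ran from 5.21 to 5.64 in K562+L, 2.56 to 2.97 in K562/IM and 2.49 to 2.93 in the labelled libraries against K562, and DUSP1 from 1.39 to 1.68 in the labelled libraries against K562/IM. With the replicate number as a block, the log2 fold change of DUSP8 in K562+L was 5.38 and the counts of phosphatases called stayed at 3, 1, 1, 2 and 2. Deviations of same-numbered libraries correlated at -0.230 to 0.158 and the own number was highest in 15 of 36 checks, so the numbers were not taken to pair the samples. Depth limits DUSP2, and DUSP8 in K562.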

Other observations

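Phosphatases outside the 6 showed their own patterns between K562/IM and the labelled libraries. PTPN7, a blood-cell tyrosine phosphatase of MAP kinases, averaged 45.6 ± 1.89 CPM in K562/IM (SD, n = 3), was at 0 in all K562+L libraries and did not pass 0.221 CPM in any K562 or labelled library. It rose from K562 to K562/IM (adjusted p = 5.7e-06) and fell from K562/IM to the labelled libraries (adjusted p = 1.9e-07). DUSP6, a cytoplasmic phosphatase of ERK, averaged 1.39 ± 0.305 CPM in K562/IM and less than 0.25 CPM in the other groups. It rose from K562 to K562/IM (adjusted p = 0.0071) and fell in the labelled libraries (adjusted p = 0.0078). No fold is given for these genes, whose low groups lie near the counting floor. DUSP9, an ERK-selective phosphatase, fell by 1.53 on the log2 scale from K562 to the labelled libraries (adjusted p = 0.00017). It was also called lower in K562/IM than in K562 (log2 -1.22). Between K562/IM and the labelled libraries, at 9.70 and 7.89 CPM on average, it was not called. DUSP21 ran the other way from PTPN7 and DUSP6, at 2.45 ± 0.584 CPM in K562/IM and 36.3 ± 6.24 CPM in the labelled libraries (log2 3.92 ± 0.21, adjusted p = 4.9e-06).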
